A study of Mus musculus with 6 samples.

Results

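Complement is a cascade of plasma and tissue proteins that marks and kills microbes and tags damaged cells for removal. The 9 genes described here cover its course: C1qa, C1qb and C1qc encode the chains of the recognition protein C1q, C1ra encodes a protease that C1q activates, C4b and C3 encode the proteins that are cleaved and deposited on targets, Serping1 encodes the inhibitor of the C1 proteases, and C6 and C7 encode parts of the membrane attack complex. In tissues, C1q is made mainly by macrophages, while fibroblasts are a known source of several of the other components and fat tissue is one of C3 and factor D. The genes were chosen by name from the pathway, and all probes whose RefSeq accession maps to them were read, which gave 13 probes for the 9 genes among 14550 named genes with a usable probe. C1ra, C3, C7 and Serping1 had 2 probes each and the others 1. All 9 genes had at least 1 probe well above background on all 6 arrays; the second C7 probe did not pass the filter on dim probes.

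The arrays hold total RNA from the ventricles of female C57BL/6N mice aged 21 weeks, with 1 sample per 1-colour array. The sleep fragmented group (3 arrays) had its sleep disturbed for 5 weeks, and the control group (3 arrays) was left undisturbed. The comparison asks how chronic sleep fragmentation bears on gene expression in the heart, innate immune genes included. The labels do not say whether the 3 samples of a group are different animals, and the error behind every p-value is the scatter among them, part or all of which may be technical. Of the 39429 non-control probes, 59.2% to 72.6% were well above background, the lowest share on sleep fragmented replicate 1, and 25221 were tested. Each group was scanned at a time of its own, so scan and group cannot be told apart in any difference given here. The 8 listed heart muscle markers (Myh6, Tnnt2, Myl2 and others) were well above background on every array. Whether they tell ventricle from atrium was not tested. Although the samples are labelled as ventricles, the atrial markers Nppa and Myl4 were above background on all arrays too, and all 4 atrial markers that passed the filter were so on the 3 controls.

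None of the 9 complement genes differed between sleep fragmented and control hearts beyond the spread between arrays. The log2 fold changes lay between -0.13 for C1qc and 0.32 for C3, and on all 13 probes the arrays of the groups overlapped. The spread within each group was wide for several of them: C4b varied 5.96-fold across the 6 arrays, and C3 varied 3.55-fold by its brighter probe and 1.85-fold by the other. The highest values of both lay on 1 array of each group, sleep fragmented replicate 2 and control replicate 2. These were the 2 highest arrays for 6 of the 9 genes, beside 9.92% of all named genes.

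The promoters shown here are those of a pair of neighbouring C1q genes whose array patterns differed, of the member with the widest spread that has an entry, and of a terminal pathway gene with a different pattern. Sequences are from RefSeq (GRCm38.p6), 250 bases ending just before the annotated start, written 5′ to 3′ on the gene's strand. A promoter was found for 6 of the 9 genes; C1qa, C4b and Serping1 were not matched. Capitals mark matches, on either strand, to 5 searched motifs: the interferon response motif GAAANNGAA, the STAT motif TTCNNNGAA, the TATA box TATAAA, the CCAAT box, spelled as its name, and the AP-1 motif TGACTCA.
C1qb, chr4:136886201-136886450, minus strand: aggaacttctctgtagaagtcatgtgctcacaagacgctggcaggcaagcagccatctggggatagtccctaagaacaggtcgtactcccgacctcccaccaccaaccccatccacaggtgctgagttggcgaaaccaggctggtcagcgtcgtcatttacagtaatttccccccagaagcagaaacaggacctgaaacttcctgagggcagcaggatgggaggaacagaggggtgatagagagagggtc
C1qc, chr4:136892915-136893164, minus strand: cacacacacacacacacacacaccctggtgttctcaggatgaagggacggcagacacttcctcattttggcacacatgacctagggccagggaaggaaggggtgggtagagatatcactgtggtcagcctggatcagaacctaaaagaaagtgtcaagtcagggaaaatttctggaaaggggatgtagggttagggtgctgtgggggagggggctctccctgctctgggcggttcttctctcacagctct
C3, chr17:57228137-57228386, minus strand: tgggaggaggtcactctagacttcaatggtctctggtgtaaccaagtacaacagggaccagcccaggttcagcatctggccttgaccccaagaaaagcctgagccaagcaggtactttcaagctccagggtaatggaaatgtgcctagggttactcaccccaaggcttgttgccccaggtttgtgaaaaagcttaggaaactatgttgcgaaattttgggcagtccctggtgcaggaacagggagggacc
C7, chr15:5063774-5064023, minus strand: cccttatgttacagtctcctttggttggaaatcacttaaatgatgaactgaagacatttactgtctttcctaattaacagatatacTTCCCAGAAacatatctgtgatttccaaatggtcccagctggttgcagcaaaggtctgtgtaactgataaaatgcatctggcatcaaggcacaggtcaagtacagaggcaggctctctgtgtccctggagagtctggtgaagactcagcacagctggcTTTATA
Among the 6 promoters the 5 motifs matched only in that of C7, once the STAT motif, first base 164 before the start, and once the TATA box on the opposite strand, 6 bases before it. Of all 32851 promoters in the table, 7.02% hold the STAT motif, 12.4% the TATA box, 7.13% the interferon response motif, 33.8% the CCAAT box and 4.46% the AP-1 motif. A match describes the letters only.

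C1q is built from 3 chains encoded side by side on chromosome 4. Values are log2 signal relative to the 75th percentile of the array's probes, so that 0 is a probe at that percentile, and they are given in the order of replicates 1, 2 and 3; levels of different probes are not comparable. C1qa stood at 0.66, 0.85 and -0.06 in the sleep fragmented hearts and at 0.08, 0.84 and 0.60 in the controls. C1qc stood at 2.06, 2.55 and 1.60 against 1.85, 2.70 and 2.05. For both genes the replicate 2 arrays were highest and sleep fragmented replicate 3 lowest, and the groups overlapped. The log2 fold change, sleep fragmented minus control, was -0.02 ± 0.29 (moderated SE, n = 3 per group) for C1qa, with a 95% interval of 0.625- to 1.54-fold. It was -0.13 ± 0.30 for C1qc (0.572- to 1.46-fold). Neither passed by limma (adjusted p = 0.990 and 0.957).

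C1qb, which encodes the B chain, did not follow the other chains from array to array. Its values were -0.0082, -0.57 and -0.39 in the sleep fragmented hearts and -0.74, -0.44 and -0.13 in the controls. Its highest array was sleep fragmented replicate 1, and the replicate 2 arrays lay in its lower part, above control replicate 1 only. Before scaling, its signal on sleep fragmented replicate 1 was the lowest, 122 units against 148 to 190 on the other arrays. That array also had the lowest 75th percentile (123 units). The root mean square difference of the values over the 6 arrays, each gene first centred on its own mean, was 0.17 on the log2 scale between C1qa and C1qc. It was 0.37 between C1qa and C1qb and 0.47 between C1qc and C1qb. Ranked by nearness to C1qa among 14532 genes, C1qc came 38th and C1qb 3110th. The log2 fold change of C1qb was 0.11 ± 0.23 (adjusted p = 0.953 by limma). Each chain was read by 1 probe, so whether the gene, the probe or the scaling carries the difference was not tested.

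C1ra encodes one of the serine proteases held by C1q. Its brighter probe stood at 1.78, 2.40 and 1.32 in the sleep fragmented hearts and at 1.29, 2.10 and 1.35 in the controls. The dimmer probe put the 6 arrays in the same order, from sleep fragmented replicate 2 down to control replicate 1. The log2 fold changes were 0.26 ± 0.32 and 0.34 ± 0.34 and did not pass (adjusted p = 0.938 for both by limma). C1ra has a near-identical neighbour, C1rb, and how the signal divides between their transcripts is uncertain.

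C4b encodes complement component C4, whose larger fragment binds covalently to the target and starts the C3 convertase. It had the widest spread of the 9 genes. Its processed signals, before scaling, were 203, 1222 and 211 units in the sleep fragmented hearts and 247, 1422 and 439 in the controls. After scaling they were 0.73, 2.47 and 0.047 against -0.026, 2.55 and 1.08 on the log2 scale. The replicate 2 arrays were high in both groups, at nearly the same level, and the other 4 lay below. The SD within a group was 1.25 in the sleep fragmented hearts and 1.29 in the controls. The log2 fold change was -0.12 ± 0.71 (adjusted p = 0.982 by limma), with an interval of 0.302- to 2.81-fold, the widest of the genes. Its sign rested on single arrays: it was -0.82 without sleep fragmented replicate 2, -0.73 without control replicate 1, 0.40 without sleep fragmented replicate 3 and 0.55 without control replicate 2. A copy of the gene, C4a, has a closely similar sequence, and the C4b probe may bind its transcript too.

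C3 encodes the protein on which all activation routes meet and whose fragment C3b coats targets. It stood at 4.0, 5.0 and 3.85 in the sleep fragmented hearts and at 3.17, 4.94 and 3.79 in the controls. Again the replicate 2 arrays were highest, and control replicate 1 was lowest. The second C3 probe ranked the 6 arrays identically, over a narrower range (1.21 to 2.10). The log2 fold change was 0.32 ± 0.45 by the brighter probe and 0.34 ± 0.24 by the other (adjusted p = 0.944 and 0.938 by limma). Without control replicate 2 the value of the brighter probe was 0.80, with an unadjusted p of 0.0411 and an adjusted p of 1 by limma; without control replicate 1 it was -0.08 and without sleep fragmented replicate 2 it was -0.04.

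Serping1, the inhibitor that dissociates active C1r and C1s from C1q, stood at 3.03, 3.41 and 2.43 against 2.36, 3.48 and 2.87 by its brighter probe. The replicate 2 arrays were highest in both groups. Its second probe stood at -0.30, -0.12 and -0.64 against -0.89, -0.39 and -0.62, where sleep fragmented replicate 1 lay above control replicate 2. The log2 fold changes of the probes were 0.05 ± 0.33 and 0.28 ± 0.22 (adjusted p = 0.984 and 0.938 by limma). Serping1 and C4b are known to respond to interferon. In the same hearts 8 of 9 measured interferon-stimulated genes of a listed set of 10 had a negative log2 fold change (median of the 9, -1.33), and 7 did not overlap between the groups (beside 7.62% of all named genes). Of the 9, 8 had an unadjusted p under 0.05 by limma, beside 2.91% of all tested probes, and 0 an adjusted p under 0.05. The interferon list was chosen with earlier results of these data known, so its counts only describe the listed genes. The groups overlapped on every Serping1 and C4b probe. Whether interferon bears on their values was not tested.

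C6 and C7 encode proteins that join C5b in turn as the membrane attack complex forms. C6 stood at -1.33, -2.19 and -1.71 in the sleep fragmented hearts and at -1.87, -2.45 and -1.64 in the controls. C7 stood at -1.92, -2.24 and -2.12 against -2.30, -2.85 and -1.92. The replicate 2 arrays, highest for C3 and C4b, were the 2 lowest for C6, and control replicate 2 was the lowest for C7. The C6 and C7 patterns differed from each other by a root mean square of 0.16, against 0.93 between C6 and C3 and 1.33 between C6 and C4b. The log2 fold changes were 0.24 ± 0.28 for C6 and 0.27 ± 0.25 for C7 (adjusted p = 0.938 for both by limma). These probes are dim, with processed signals of 44.5 to 68.8 units for C6 and 32.5 to 54.8 for C7. The lowest C7 signal before scaling lay on sleep fragmented replicate 1, the array with the lowest 75th percentile (123 units). After scaling C7 ranked highest on that array, level with control replicate 3 (-1.92 for both). C6 too ranked highest on that array after scaling (-1.33), where its signal before scaling was 48.8 units. Without that array the log2 fold change was 0.04 for C6 and 0.18 for C7. How far the scaling sets these patterns was not tested. The second C7 probe was well above background on 1 of the 6 arrays and has no fold change here.

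**Figure D1:**
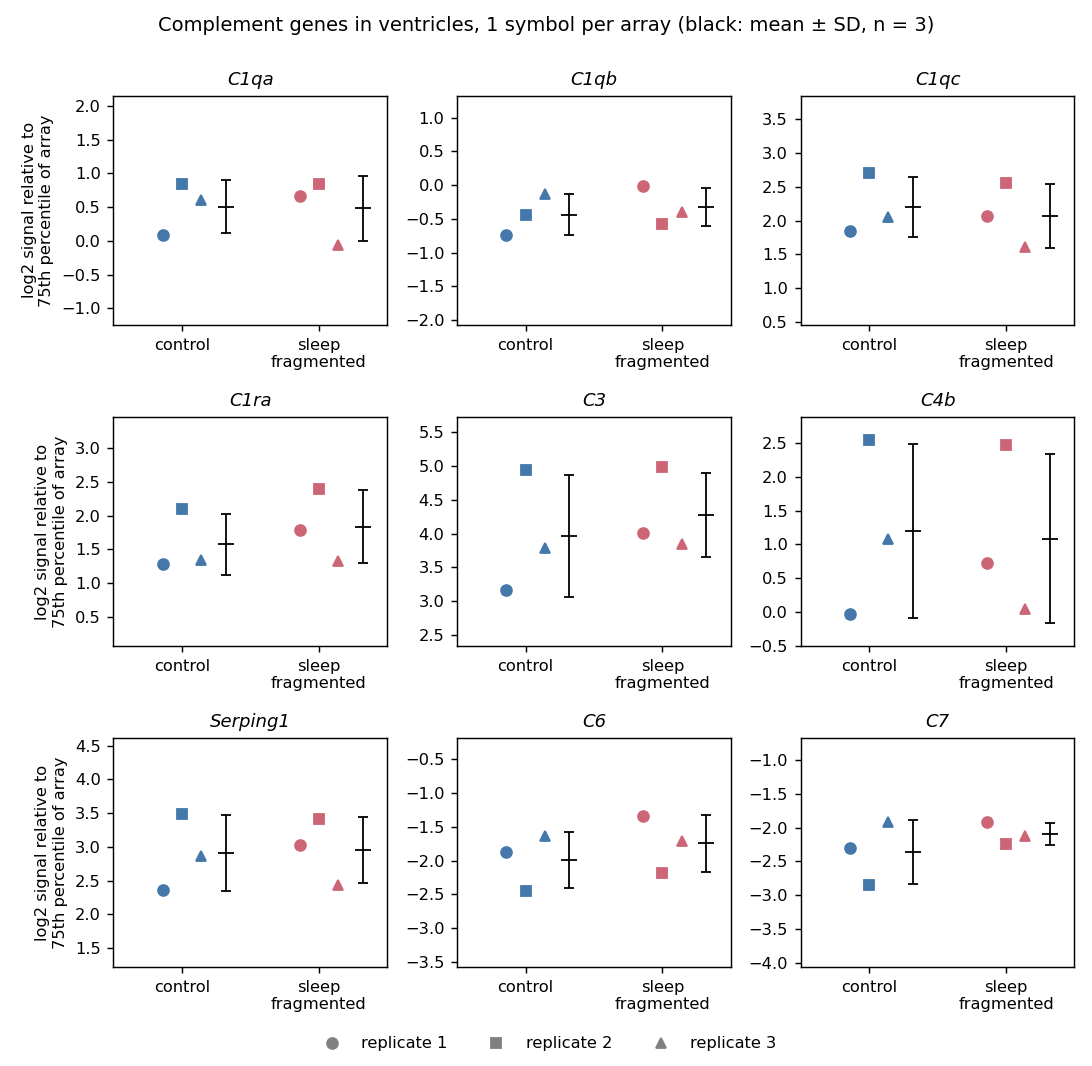
Log2 signal relative to the array's 75th percentile (vertical axis, same span in each panel) for the 9 complement genes in control (blue) and sleep fragmented (red) ventricles, 1 symbol per array with the shape giving the replicate, and the mean ± SD in black. The squares of replicate 2 stand high in both groups for C3, C4b, C1qc, C1ra and Serping1 and low for C6.

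Read together, 0 of the 12 kept complement probes and 0 of the 9 genes had an adjusted p under 0.05 by limma, where 0% of all tested probes did. At an unadjusted p under 0.05 there were 0 of 9 genes, beside 2.91% of all tested probes, or 1.93% with a fold of at least 1.5 as well. Groups without overlap were found on 0 of 13 probes, beside 7.25% of all tested probes. The median log2 fold change of the 9 genes was 0.11, and that of all named genes was 0.05. By sign, 6 genes were positive and 3 negative, beside 58.7% positive among all named genes; with median scaling 4 were positive, and with single arrays left out between 3 and 9. The intervals leave room for moderate differences: for each gene the upper limit was at least 1.46-fold and the lower limit at most 0.811-fold.

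**Figure D2:**
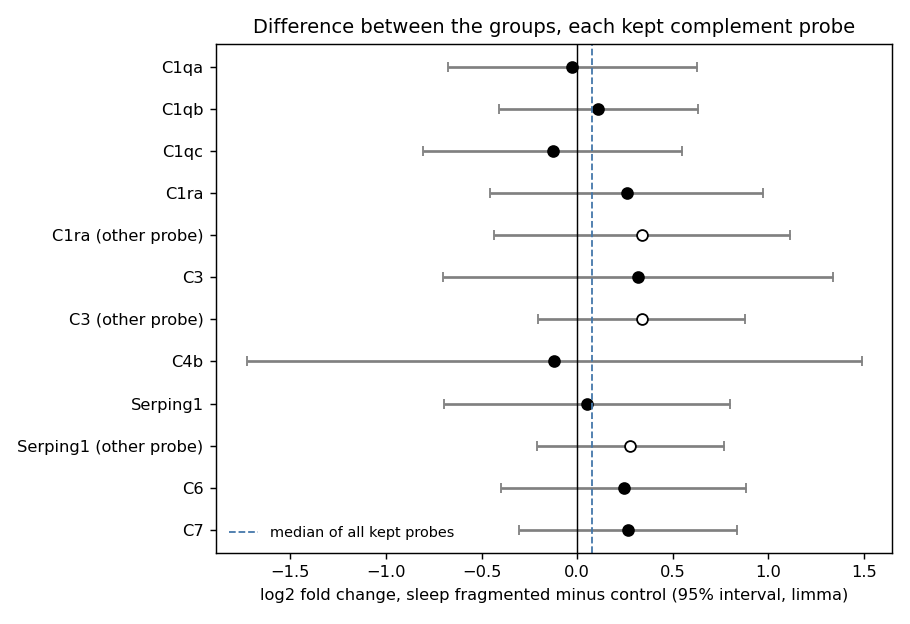
Log2 fold change, sleep fragmented minus control, with its 95% interval from limma, for the 12 kept probes of the complement genes; filled points are the probes that stand for a gene, open points the second probes. Every interval includes 0, and that of C4b is the widest, from -1.73 to 1.49.

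The spread within groups was large for these genes. The SD, pooled over both groups, was 1.27 on the log2 scale for C4b, 0.77 for C3, 0.53 for Serping1 and 0.50 for C1ra, against a median of 0.26 over all named genes. These values are those of the brighter probe where a gene has 2. By the other probe the SD was 0.32 for C3 (above 66.2% of genes), 0.26 for Serping1 (above 50.9%) and 0.55 for C1ra (above 94.8%), so the wide spread of C3 and Serping1 rested on the choice of probe. C4b ranked 49th by the SD among 14550 genes and C3, by its brighter probe, 226th. All 9 genes lay above the median, C1qb nearest to it (0.30, above 60.5% of genes) and C7 next (0.35, above 72.2%), and C4b, C3, Serping1 and C1ra lay above the 90th percentile. C7 differed between the groups in this respect, with an SD of 0.16 in the sleep fragmented hearts and 0.47 in the controls; that difference was not tested.

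**Figure D3:**
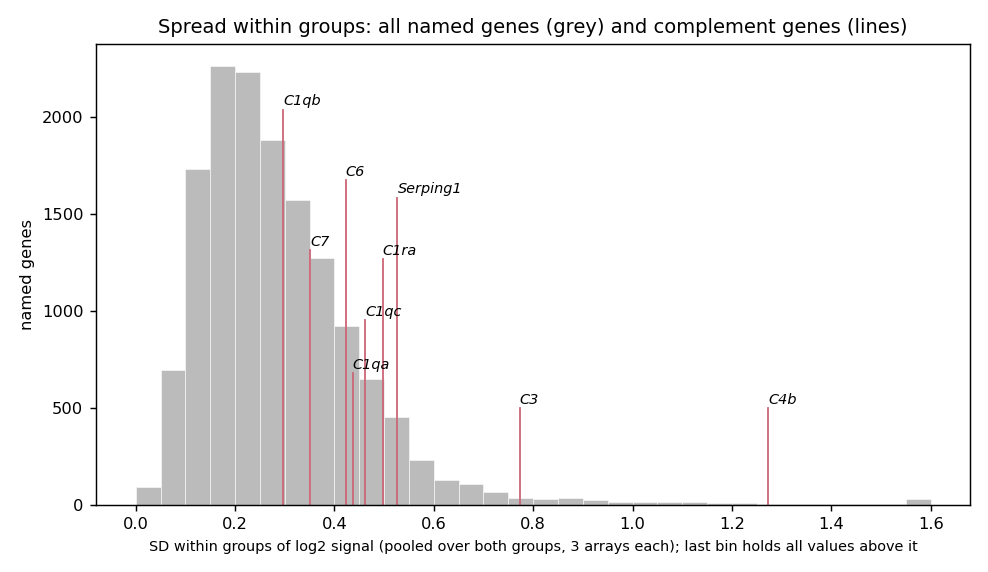
Distribution over all named genes of the SD within groups of the log2 signal (horizontal axis; bars count genes), with a line for each complement gene; line heights carry no value and only separate the names, and genes with 2 probes are shown by the brighter one. C3 at 0.77 and C4b at 1.27 stand in the right tail, and C1qb at 0.30 stands nearest to the middle.

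The replicate 2 arrays of the groups, high for most of the complement genes, were also the arrays with the highest means of the atrial and adipocyte lists, though not for every marker. They held the 2 highest values for C1qa, C1qc, C1ra, C3, C4b and Serping1, and the 2 lowest for C6; among all named genes the shares were 9.92% and 22.2%. Atrial markers passed the filter for 4 of 5 genes, Sln missing it because it was above background on 2 arrays of each group, and their summed level, in multiples of the array's 75th percentile, ran from 32.7 to 298 in the sleep fragmented hearts and from 15.5 to 214 in the controls, with the top of each range on replicate 2. The atrial light chain gene Myl7 stood at -2.81, 3.56 and -1.18 in the sleep fragmented hearts and at -3.26, 2.51 and -1.28 in the controls. The atrial growth factor gene Bmp10 was highest on sleep fragmented replicate 2 (-0.34) but lowest on control replicate 2 (-3.00). Of 4 measured adipocyte markers out of 7, Adipoq, the gene of the fat hormone adiponectin, stood at -2.65, 2.87 and -1.44 against -2.97, 1.97 and -0.74. Retn, the gene of resistin, followed it (-1.88, 0.69 and -1.88 against -2.12, 0.02 and -1.44), but the other 2 markers measured did not. Lipe, the hormone-sensitive lipase gene, was lowest on replicate 2 in each group (-0.92, -1.34 and -1.09 against -1.22, -1.58 and -0.70). Fabp4 did not follow either: its highest array was sleep fragmented replicate 1 (6.87) and the others lay between 6.02 and 6.18. Leptin was not well above background on any array. Plin1 and Cidec were removed by the filter, being above background on 2 arrays of each group. Plin1 had its 2 highest values on the replicate 2 arrays (-0.89 and -2.00), as did 1 Cidec probe (3.11 and 2.42). The other Cidec probe was highest on sleep fragmented replicate 2 (-1.64) but not on control replicate 2 (-2.85). The summed level of the adipocyte list was 65.8 to 118 and 71.0 to 74.2, since Fabp4 makes up most of it.

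Macrophage markers, of which 11 of 12 were measured, had summed levels of 15.6 to 31.0 in the sleep fragmented hearts and 16.1 to 22.5 in the controls, with the replicate 2 arrays again the highest. The sum is weighted to the brightest marker, Csf1r (3.78 and 3.33 on those arrays). Csf1r, Adgre1 (brighter probe), Mrc1, Aif1 and Ms4a7 had their 2 highest values there, but not every marker did. Cd163 had its 2 lowest there (-2.35 and -2.52), and Fcrls was lowest on replicate 2 in each group (-1.96 and -2.41). Their mean, each gene centred over the 6 arrays, was 0.29 on sleep fragmented replicate 2 and 0.19 on control replicate 2, while C1qa stood at 0.35 on both and C1qc at 0.42 and 0.57. Fibroblast markers, all 10 measured, were high on sleep fragmented replicates 2 (0.57) and 1 (0.27) but not on control replicate 2 (-0.25). The log2 fold changes of all 10 were positive (median 0.38), beside 58.7% of all named genes. With quantile normalization all 10 were positive, beside 49.6%, and with median scaling 8 of 10, beside 26.9%. At an unadjusted p under 0.05 by limma there were 0 of them, beside 2.91% of all tested probes. The mean of the mesothelial markers (3 of 7 measured) was 0.94 on sleep fragmented replicate 2 and -0.28 on control replicate 2. Msln, a mesothelial gene that the filter removed because it was above background on 2 arrays of each group, was high on both (1.80 and 1.18, against -3.82 to -1.18 on the other arrays). The measured Upk3b also had its 2 highest values there (-0.15 and -1.90). So did Lrrn4 (-1.43 and -3.41) and Upk1b (-1.74 and -3.82), which the filter on dim probes removed. Wt1, Krt8 and Krt19 did not, with -1.28, -3.52 and -3.30 on control replicate 2. The mean of the B and plasma cell markers (6 of 7 measured) was highest on control replicate 2 (1.15). The part of any of these in the complement values was not tested, and in bulk tissue the number of cells of a type and the RNA per cell cannot be told apart.

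**Figure D4:**
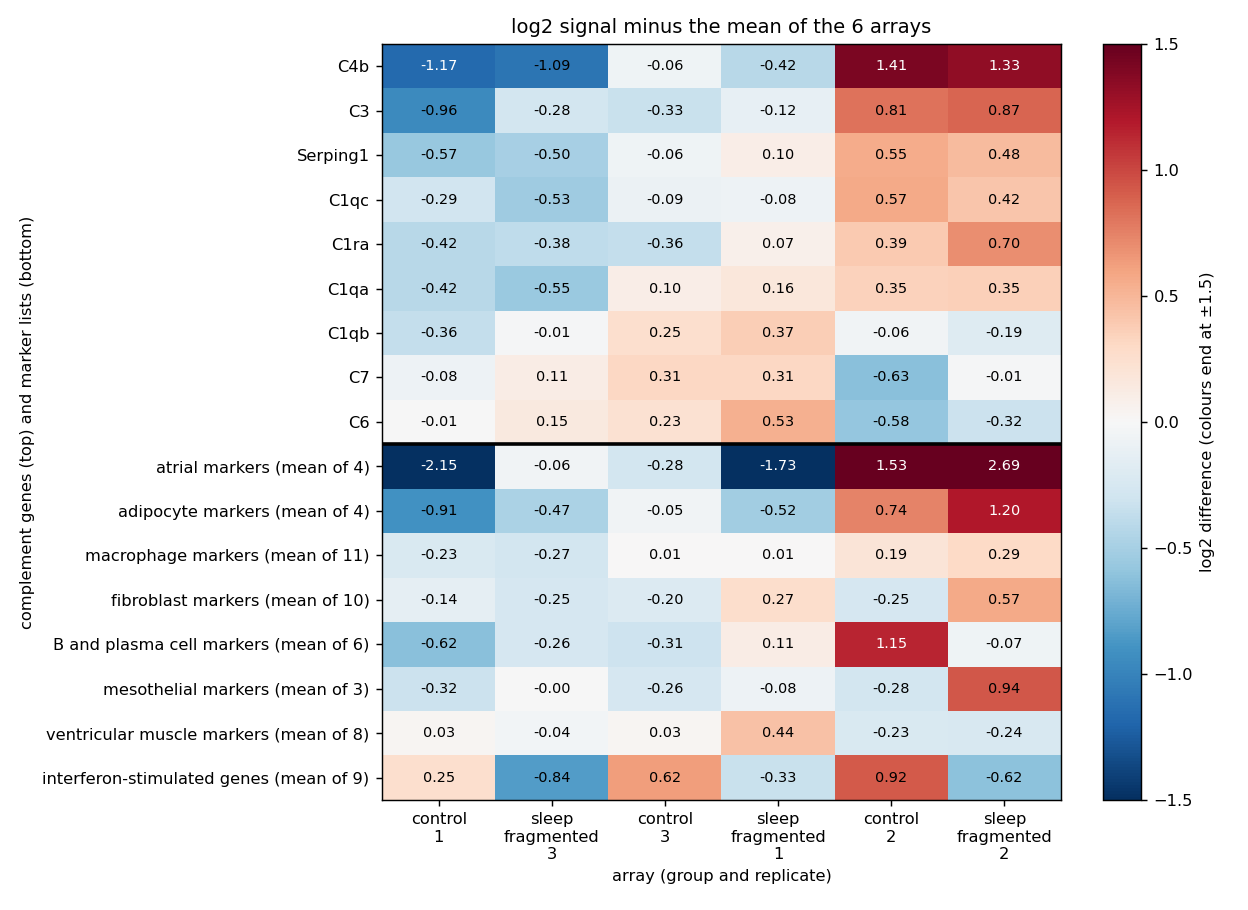
Log2 signal of each complement gene and mean of each marker list, minus its mean over the 6 arrays (columns, labelled by group and replicate; red is above and blue below the mean). C4b, C3, Serping1, C1qc, C1ra and C1qa are red on both replicate 2 arrays, as are the means of the atrial and adipocyte lists, and C6 is blue there.

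With the replicate 2 arrays of both groups left out, the spread of C3 and C4b narrowed and no gene passed. Those arrays held the 2 highest values of both genes, so a narrower range followed from the choice of arrays. Across the other 4 arrays C3 varied 1.79-fold and C4b 2.15-fold, and the SD of C4b was still above that of 98.6% of genes. The log2 fold changes became 0.45 ± 0.26 for C3 and -0.14 ± 0.34 for C4b. In this fit 0 of 9 genes had an unadjusted p under 0.05 by limma, beside 977 of all 25221 tested probes. C1qa (SD 0.44, above 93.9% of genes) and C1qb (0.36, above 86.0%) then had larger spreads than C3 (0.32).

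The genes whose pattern over the 6 arrays was most like each complement gene's, by the smallest root mean square difference of centred values, are given as a description. For C1qa they were G6pdx (0.08), Sla (0.08) and Folr2 (0.09), the last a folate receptor gene of resident macrophages. For C1qc they were Tmem63a, Fcgr2b, an inhibitory receptor for antibody, and Csrp1, at 0.08 to 0.09. For C3 they were Tkt, Inmt and Pnp2 (0.11 to 0.14). For C4b they were the glypican gene Gpc3 (0.21) and the fat cell genes Adig (0.29) and Retn (0.32), all high on both replicate 2 arrays. For Serping1 they were Spsb2, Lrp1 and Aatk (0.09 to 0.10), and for C1ra Psat1, Agpat4 and Nsg1 (0.06 to 0.09). C1qb was nearest to Dusp22, Cd5 and Bbof1, C6 to Col9a1, Ckmt1 and Gm13271, and C7 to BC048562, Klk9 and Ccdc158. Many other genes lay close to these members as well: C7, at 0.16 from C6, ranked only 1139th. Among the members themselves, C3 was 38th nearest of 14532 genes to C4b, and Serping1 was 20th nearest to C1qa and 30th to C1qc, whereas C6 was 13420th from C4b.

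The rest of the pathway did not pass either. Of 51 other listed complement genes, 35 were measured. By limma 0 had an adjusted p under 0.05, beside 0% of all tested probes. An unadjusted p under 0.05 was found for 0 of them, beside 2.91% of all tested probes by limma. The C1, C4-cleaving and lectin pathway genes had 11 measured members, all with a positive log2 fold change (median 0.23), beside 58.7% of all named genes. With median scaling 7 of the 11 were positive (median 0.02), and 26.9% of all named genes. With quantile normalization 10 of the 11 were positive (median 0.23), and 49.6% of all named genes. The smallest p values among them belonged to Mbl1, a mannose-binding lectin (0.79 ± 0.37), C1rb (0.48 ± 0.25), C1rl (0.34 ± 0.21) and Masp2 (0.23 ± 0.22). The 3 alternative pathway genes had values of 0.16 ± 0.33 for Cfp, which stabilises the C3 convertase, 0.42 ± 1.56 for Cfd, the protease factor D, and 0.04 ± 0.42 for Cfb. Cfd stood at -1.41, 4.30 and -0.08 in the sleep fragmented hearts and at -2.17, 3.23 and 0.50 in the controls, so that it too was highest on the replicate 2 arrays. Of the terminal genes C8b had 0.24 ± 0.20 and C8g -0.06 ± 0.17.

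Regulators had 10 measured members with a median of 0.06, or -0.15 with median scaling. Clu, a chaperone that blocks assembly of the membrane attack complex, was the 1 gene of these 35 whose groups did not overlap: it stood at 7.16, 7.25 and 6.92 in the sleep fragmented hearts and at 6.73, 6.85 and 6.84 in the controls (0.30 ± 0.18, adjusted p = 0.938 by limma), beside 7.62% of all named genes without overlap. Susd4 had a log2 fold change of 0.50 ± 0.24, Cfhr2 of 0.28 ± 0.21 and C4bp, whose product binds C4b, of -0.57 ± 0.34. Receptors had 9 measured members with a median of 0.08, or -0.13 with median scaling and -0.03 with quantile normalization. Vsig4, the receptor for C3b on resident macrophages, had 1.04 ± 0.79, with values of -0.66, 1.89 and -1.38 against -2.19, -0.08 and -1.02. Itgb2 (0.21 ± 0.20), Itgam (0.24 ± 0.30) and Cd93 (0.16 ± 0.22) did not pass either.

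The direction of most members depended on single arrays or on the scaling, as the plot of settings shows. C6 and C7 had positive values in all 16 alternatives run on single probes, from 0.01 to 0.46 for C6 and from 0.02 to 0.49 for C7, and none of them passed. Both probes are dim, and their size moved with the scaling. C6 and C7 were 0.06 and 0.04 with quantile normalization, and 0.03 and 0.06 with median scaling. Each of the other 7 genes changed sign in at least 1 of the alternatives.

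**Figure D5:**
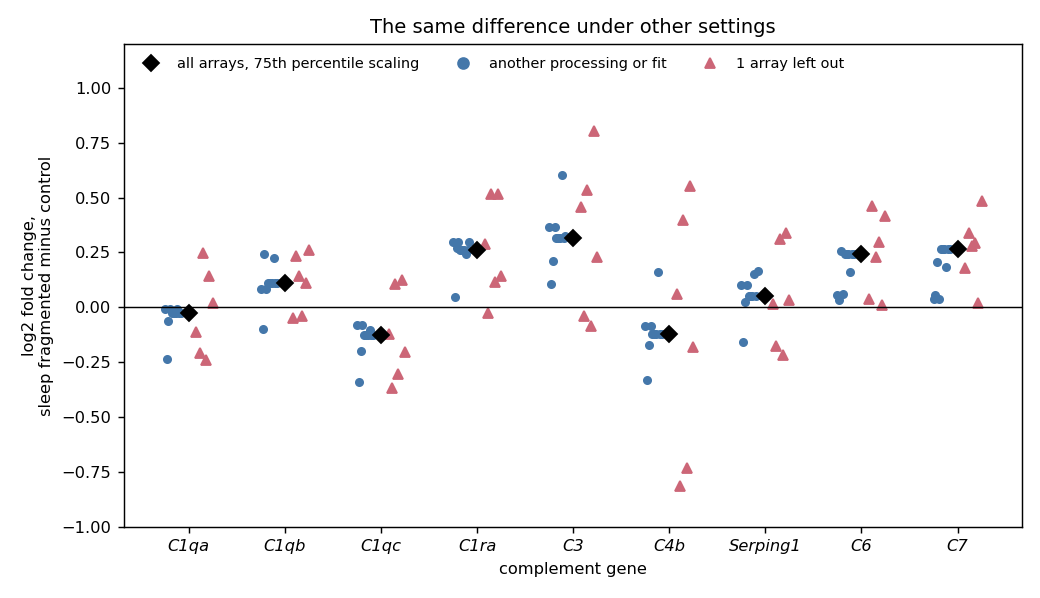
Log2 fold change, sleep fragmented minus control, of each complement gene with all arrays and the 75th percentile scaling (black), under another processing or fit (blue) and with 1 array left out (red). The red points of C4b span -0.82 to 0.55, those of C3 -0.08 to 0.80, and C6 and C7 stay above 0.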

How the data were processed

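The scanner output was deposited as 1 file per array. Its intensity values are spot signals already corrected for background and spatial trend, and per the file headers they came from Agilent Feature Extraction 11.0.1.1 (array design 026655), where the submitters' processing notes give 10.5.1.1. The deposited flags per spot (0 or 1) mark outliers, saturation and spots well above background. The authors also deposited a table of log2 values (column medians 5.54, r of 0.998 or more with the arrays' own log2 signal, no centring by gene). How it was made is unstated in the sources used here, and it served as an alternative. Its log2 fold changes for the members were close to those with quantile normalization (0.366 and 0.365 for C3). These 2 alternatives are thus hardly separate.

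Control and outlier spots (180 to 240 per array) were left out, none of the spots was saturated (0), and log2 values of the spots of 1 probe were averaged and scaled by subtracting the array's 75th percentile. That percentile ran from 123 to 252 units. A probe was kept if either group had all its arrays well above background for it. Names came from unversioned RefSeq accessions through a GRCm38.p6 gene table (27234 of 39429 probes); the array design used mm9, so no probe positions are given, and the promoter coordinates are those of the RefSeq table. The brightest kept probe stood for a gene. Groups, taken from the ends of the titles, were compared with limma 3.58.1 in R 4.3.3 (default eBayes, two-sided, no block, Benjamini-Hochberg over all kept probes, threshold 0.05). The fit was tested on data simulated with the probes' own means and spreads. Of 50 probes changed 1.5-fold, 0 had an adjusted p under 0.05 by limma. It was 7 of 50 at 2-fold and 34 of 50 at 3-fold. The number of arrays limits the precision.

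The members and lists were chosen with earlier results of these data known. Named besides the members are up to 4 genes of each other complement list with the smallest p, and the 3 genes most like each member in centred pattern; genes outside this rule were chosen after their values were seen. The alternatives were other scalings, background corrections, filters, weights, priors, a block by replicate number, the mean of a gene's probes, and each array left out.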

Additional observations from a re-analysis of the deposited data

How the results depend on the processing

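No complement gene passed the adjusted threshold under any of the 17 alternatives, 1 of which (both replicate 2 arrays left out) was chosen after seeing the data. The median log2 fold change of the 9 genes lay between -0.10 and 0.28 and moved by less than its SD between arrays (0.38). Median scaling moved the median of all kept probes from 0.08 to -0.13 and gave -0.10 for C1qb and -0.16 for Serping1; array weights gave 0.16 for C4b. With single arrays left out the log2 fold changes ran from -0.24 to 0.25 for C1qa, -0.047 to 0.26 for C1qb, -0.37 to 0.12 for C1qc, -0.024 to 0.52 for C1ra, -0.084 to 0.80 for C3, -0.82 to 0.55 for C4b and -0.22 to 0.34 for Serping1. Over all probes, 0 passed the adjusted threshold, 3 did with normexp, 4 with the replicate block and 5 without both replicate 2 arrays. Probes with both an unadjusted p below 0.05 and a 1.5-fold or larger difference numbered 486; it was 179 with normexp, 1413 without a filter on dim probes, 848 with the replicate block, 758 without both replicate 2 arrays, and 338 to 2711 with single arrays left out, the most without control replicate 3 and 1053 without sleep fragmented replicate 2. Of those probes 65.2% were higher in the sleep fragmented hearts, 24.3% with quantile normalization and 13.8% with median scaling. The cause of these differences was not tested. Arrays of the same number deviated together with r of 0.09, 0.58 and 0.22 over genes, so the numbers were not taken as pairs; with the replicate block the C3 value stayed at 0.32 and its SE was 0.21 (adjusted p = 0.652 by limma). The slide was not used as a block, since only barcodes that repeat the replicate order are recorded. The second C7 probe was above background on 1 array only, which leaves C7 with 1 usable probe.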

Other observations

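C2, the protease that joins C4b in the classical C3 convertase, shared the pattern of C3 and C4b; it was chosen after its values were seen. It stood at 0.55 on sleep fragmented replicate 2 and at -0.33 on control replicate 2, against -2.93 to -2.11 on the other 4 arrays, with a log2 fold change of 0.45 ± 0.86 (unadjusted p = 0.613 by limma). The anaphylatoxin receptor gene C5ar2, also chosen after its values were seen, stood at -0.01 and -0.59 on these arrays and between -1.84 and -1.60 on the others. The C3a receptor gene C3ar1 did not share it, with -2.54 and -2.63 there and values between -2.67 and -1.93 elsewhere.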
